A study of Mus musculus with 5 samples.

Results

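The mitotic kinesins are motor proteins that build and move the spindle, and 10 of their genes (Kif11, Kif15, Kif18a, Kif18b, Kif2c, Kif22, Kif4, Kif23, Kif20a and Kif14) were followed here on 5 whole-transcript arrays of erythroid cells from mouse bone marrow. Members were taken by symbol, from probe sets annotated with that symbol alone. All 10 were measured, among 22180 genes, and each had 1 such probe set. Cells came from 3 mutant samples of genotype Polgtm1Lrsn mt/mt and 2 wild-type (WT) samples of genotype Polgtm1Lrsn wt/wt, called Polg mutant and WT below, on a C57BL/6 background. Polg encodes the DNA polymerase of mitochondria, and this allele impairs its proofreading. Both groups were offspring of one cross, in which each parent was Atg7 flox/flox and PolG wt/mt, the dam was Epo-cre wt/wt and the sire Epo-cre ki/wt. The labels do not say which offspring carried the Cre allele. The mice were phlebotomized according to the series' design text, although the treatment entry of every sample reads none, and no ages were given in the sources used here. Marrow was depleted of CD45+ cells and then enriched for Ter119+ cells on magnetic beads. Nothing states that each array came from a separate animal, so the spread behind the p-values may be technical.

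Kinesins couple the hydrolysis of ATP to steps along microtubules or to the disassembly of microtubule ends. In dividing cells different members push spindle poles apart, set the length of microtubules, hold chromosome arms at the spindle equator, and organise the central spindle on which cytokinesis depends. Most are made in the G2 and M phases, when promoters of late cell cycle genes are active, and terminal erythroid maturation couples a short series of divisions to nuclear condensation before the cells leave the cycle. In people, variants of KIF23 cause a congenital dyserythropoietic anaemia with giant multinucleate erythroblasts.

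All 10 kinesin genes were lower in every Polg mutant array than in both WT arrays. The log2 difference, Polg mutant minus WT, ran from -0.88 for Kif23 to -0.33 for Kif2c, or 1.84-fold to 1.26-fold lower, with a median of -0.57 (1.49-fold lower), while the median over all genes was 0. By the same criterion 9.73% of all genes tested were lower, and 8.36% lay above both WT arrays on every mutant array. That share was higher among bright genes: of the 1532 genes whose mean level lay in the kinesins' range, from 9.02 to 11.56 on the log2 scale, 38.8% did so and 18.2% lay above both WT arrays on every mutant array, and their median difference was -0.08. With limma, all 10 had an unadjusted p under 0.05 (from 0.00167 to 0.0295), where 5.33% of all genes were lower and 4.18% higher at that level, and 26.6% of the genes in the kinesins' range were lower. None of the 10 passed after adjustment over all genes (limma adjusted p from 0.217 to 0.431), nor did any other gene, so the share called was 0%. Without WT replicate 1 the median difference of the 10 was -0.52, in a fit that has a single WT array. In bulk RNA, fewer cells of a type and less RNA per cell cannot be told apart.

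The arrays carried signs of an erythroid sample with some other marrow cells. All 12 measured genes of 15 erythroid markers were above a log2 of 6 on every array, with list means of 11.77 to 11.86 in the Polg mutant arrays and 12.03 to 12.21 in the WT arrays, and 11 of the 12 lay below both WT arrays on every Polg mutant array. Of all genes tested, 9.73% did so, and of the genes in the kinesins' range of level 38.8% did. Most of these erythroid markers were brighter than that range. Ptprc, which encodes CD45, still read 7.67, 7.40 and 6.06 in Polg mutant replicates 1 to 3, against 7.13 and 6.43 in WT replicates 1 and 2. The 17 neutrophil markers, all measured, averaged 8.19, 8.72 and 7.05 in the Polg mutant arrays and 7.77 and 6.88 in the WT arrays, so these averages overlapped between the groups. Singly, 16 overlapped and 1, Chil3, was higher without overlap, against 8.36% of all genes. Elane, named as the brightest of the 17, read 11.75, 11.35 and 10.89 in Polg mutant replicates 1 to 3, against 11.61 and 10.55 in WT replicates 1 and 2. Among the other cell types, list means were 5.56 to 5.86 in Polg mutant and 5.69 to 5.70 in WT for 9 measured macrophage markers, 6.28 to 6.55 in Polg mutant and 6.42 to 7.21 in WT for 7 megakaryocyte markers, 4.79 to 5.34 in Polg mutant and 5.24 to 5.76 in WT for 7 B cell markers, and 4.52 to 4.71 in Polg mutant and 4.63 to 4.81 in WT for 6 T cell markers. The part of the erythroid and other marrow cells in the kinesin differences was not tested.

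Promoter sequences of the members are described here, and their part in the kinesin differences was not tested. Late cell cycle promoters often carry a cell cycle homology element, with the core TTTGAA, and CCAAT boxes of the factor NF-Y. The RefSeq promoter table (GRCm38.p6) gave windows from 250 bases before to 50 bases after the annotated start for 9 members that were searched on both strands, and Kif20a was not analysed here for sequence. TTTGAA was found in 8 of these 9 windows, against 17.9% of all 32851 windows of that length, and CCAAT in 6 of 9, against 37.4%. The variant TTTAAA, a palindrome, occurred in 2 of 9, against 13.2%. Between 80 bases before and 30 after the start, TTTGAA and CCAAT occurred together in 5 of 9 windows, against 1.11% of all. The 6 members with TTTGAA in that shorter window are printed 5′ to 3′ on the gene's strand, and the capitals mark both motifs. Where the core lies on the opposite strand it reads TTCAAA in print, and a CCAAT box on that strand likewise reads ATTGG.
Kif11: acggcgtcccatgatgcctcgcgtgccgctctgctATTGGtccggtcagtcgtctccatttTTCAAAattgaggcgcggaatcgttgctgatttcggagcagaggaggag
Kif15: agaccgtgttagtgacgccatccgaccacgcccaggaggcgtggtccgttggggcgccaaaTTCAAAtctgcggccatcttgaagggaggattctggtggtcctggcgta
Kif18b: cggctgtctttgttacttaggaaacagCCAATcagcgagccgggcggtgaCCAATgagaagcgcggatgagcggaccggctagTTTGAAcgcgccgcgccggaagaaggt
Kif22: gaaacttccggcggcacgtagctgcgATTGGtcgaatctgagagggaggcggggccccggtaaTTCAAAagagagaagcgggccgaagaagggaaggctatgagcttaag
Kif23: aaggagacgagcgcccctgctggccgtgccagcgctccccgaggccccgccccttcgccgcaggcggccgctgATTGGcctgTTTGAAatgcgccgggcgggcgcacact
Kif4: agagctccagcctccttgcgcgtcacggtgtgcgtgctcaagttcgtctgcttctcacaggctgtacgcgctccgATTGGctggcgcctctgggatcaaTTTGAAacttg

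These windows lie at chr19:37376302-37376411 on the plus strand (Kif11), chr9:122951001-122951110 plus (Kif15), chr11:102925095-102925204 minus (Kif18b), chr7:127042391-127042500 minus (Kif22), chr9:61946770-61946879 minus (Kif23) and chrX:100625985-100626094 plus (Kif4). In Kif11 the CCAAT box covers bases -45 to -41 and the TTTGAA core -19 to -14, counted from the annotated start, and Kif22 has the same order on the same strand, at -54 to -50 and -17 to -12. In Kif23 the motifs stand close together across the start, at -7 to -3 and 3 to 8. Kif15 has a core at -19 to -14 and no CCAAT in its window. Kif2c and Kif14 have TTTGAA only farther upstream, at -103 to -98 and -228 to -223. For both, the RefSeq gene begins well before the start used in the table, by 3852 and 1547 bases, so these windows may not be the promoter in use. None of the 3 motifs was present in the window of Kif18a. A match is a description of sequence, not of binding.

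Spindle assembly depends on Kif11, the plus-end motor also called Eg5 that slides antiparallel microtubules apart and separates the poles, and on Kif15, which helps to keep the spindle bipolar. Kif11 read 11.25, 11.48 and 11.44 on the log2 scale in Polg mutant replicates 1 to 3, against 11.93 and 11.67 in WT replicates 1 and 2. The groups did not overlap, but the gap of 0.19 between the highest Polg mutant and the lowest WT array was smaller than the 0.25 that separated the WT arrays. Its difference was -0.41 ± 0.12 (SE, limma adjusted p = 0.431), the largest p of the 10 genes, and it ranged from -0.54 to -0.28 when 1 array was left out. For Kif15 the levels were 9.20, 9.48 and 9.41 in Polg mutant, against 10.05 and 9.78 in WT. Here the gap of 0.30 was a little wider than the distance between the WT arrays, 0.27. The Kif15 difference was -0.56 ± 0.14 (SE, limma adjusted p = 0.345), or 1.47-fold lower.

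**Figure D1:**
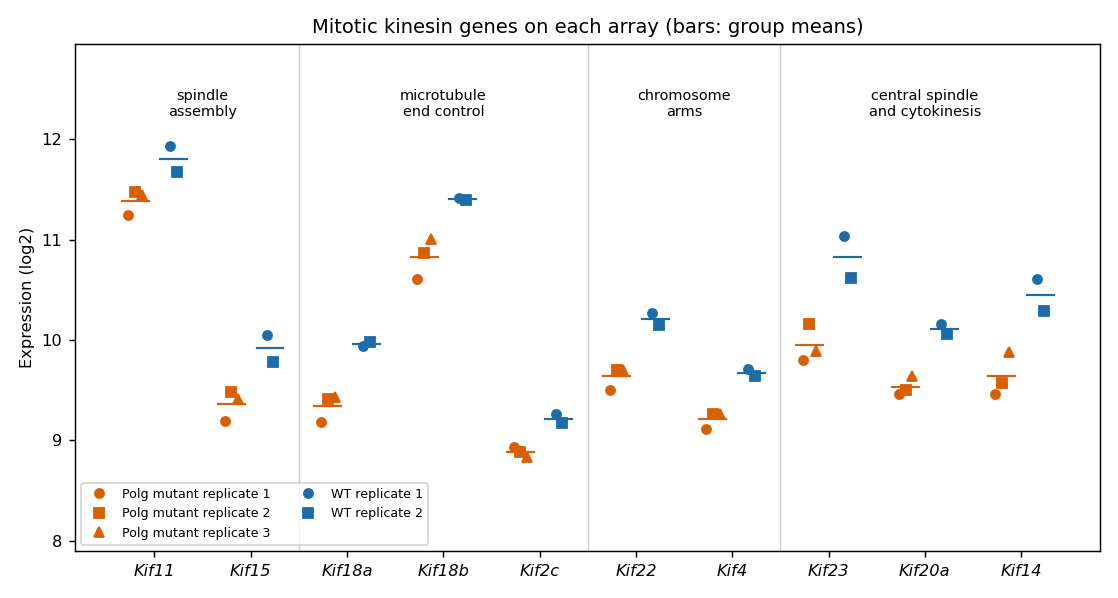
Log2 expression (vertical axis) of the 10 mitotic kinesin genes, with 1 point per array, Polg mutant (orange, 3 arrays) left of WT (blue, 2 arrays) for each gene, and bars at the group means. Every Polg mutant point lies below both WT points of its gene, and the gap between the groups runs from 0.19 for Kif11 to 0.50 for Kif18a.

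Kif18a, Kif18b and Kif2c act on microtubule ends. Kif18a damps the growth and shrinkage of kinetochore fibres and aligns chromosomes at the metaphase plate. Its levels were 9.18, 9.41 and 9.44 in Polg mutant, against 9.94 and 9.98 in WT, and the gap of 0.50 between the groups was the widest of the 10 genes. The difference was -0.62 ± 0.095 (SE, limma adjusted p = 0.238). Kif18b, which limits astral microtubules, read 10.61, 10.87 and 11.01 in Polg mutant, against 11.41 and 11.39 in WT. The WT arrays were nearly equal while the Polg mutant arrays spread over 0.40, about as much as the gap of 0.38 between the groups. Its difference was -0.57 ± 0.14 (SE, limma adjusted p = 0.340). Kif2c, the depolymerase MCAK that helps to correct faulty kinetochore attachments, showed the smallest difference, -0.33 ± 0.050 (SE, limma adjusted p = 0.238), from 8.94, 8.88 and 8.83 in Polg mutant against 9.26 and 9.17 in WT. Its Polg mutant arrays were also the tightest, with an SD of 0.054, and it was the only one of the 10 genes that was highest in Polg mutant replicate 1 among the mutant arrays.

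Kif22 and Kif4 are chromokinesins, which bind chromosome arms. Kif22, or Kid, pushes the arms towards the spindle equator. Its levels were 9.50, 9.71 and 9.71 in Polg mutant, against 10.27 and 10.15 in WT, with a difference of -0.57 ± 0.091 (SE, limma adjusted p = 0.242). Kif4 works with condensin on mitotic chromosomes and with Prc1 at the central spindle, and read 9.12, 9.26 and 9.27 in Polg mutant, against 9.71 and 9.65 in WT. For both genes the distance between the groups, 0.44 for Kif22 and 0.38 for Kif4, was more than the spread within either group. The Kif4 difference was -0.46 ± 0.063 (SE, limma adjusted p = 0.236), or 1.38-fold lower. A pseudogene of Kif4 has a probe set of its own, and probes may not separate the pair.

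The motors of the central spindle and cytokinesis included the 2 largest differences. Kif23, or MKLP1, forms the centralspindlin complex with Racgap1 and bundles microtubules at the midzone. It read 9.80, 10.16 and 9.89 in Polg mutant, against 11.04 and 10.62 in WT, a difference of -0.88 ± 0.19 (SE, limma adjusted p = 0.303). The WT arrays differed by 0.42, less than the gap of 0.46, and without WT replicate 1 the difference was -0.67. Kif14, which acts with citron kinase and Prc1 late in cytokinesis, read 9.46, 9.57 and 9.88 in Polg mutant, against 10.61 and 10.29 in WT. Its difference was -0.81 ± 0.18 (SE, limma adjusted p = 0.319), and the Polg mutant arrays spread over 0.42, slightly more than the gap of 0.41. Kif20a, or MKLP2, carries the chromosomal passenger complex to the midzone, and its levels were 9.46, 9.51 and 9.64 in Polg mutant, against 10.16 and 10.06 in WT. With little spread in either group, Kif20a had the smallest p of the 10 genes (difference -0.58 ± 0.071 SE, limma adjusted p = 0.217).

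**Figure D2:**
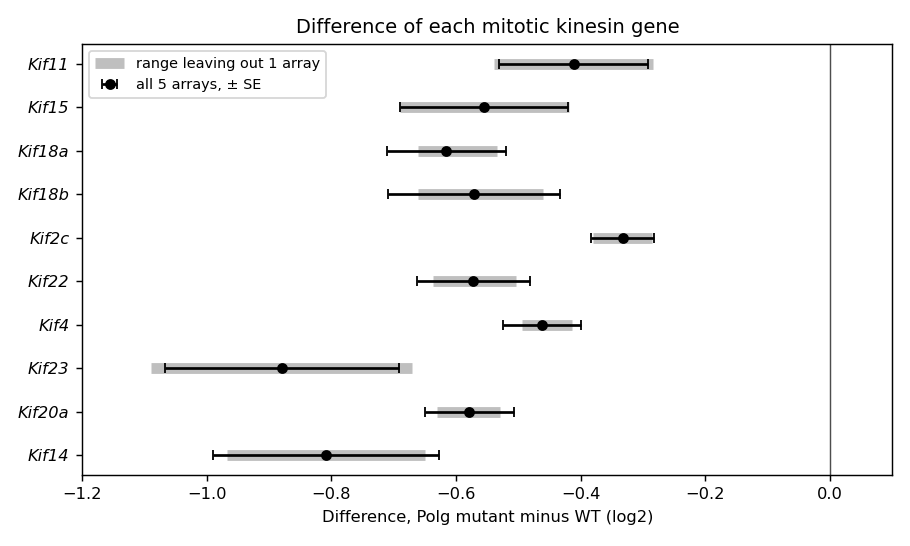
Log2 difference, Polg mutant minus WT (horizontal axis), of each mitotic kinesin gene with its SE from limma (black, 3 Polg mutant and 2 WT arrays) and the range of the difference when any 1 array was left out (grey). All ranges lie below 0, from -1.09 at the lowest for Kif23 to -0.28 at the highest for Kif11.

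For every one of the 10 genes the exact permutation test gave a two-sided p of 0.1, the smallest that the 10 splits of 5 arrays into groups of 2 and 3 allow. Only a gene whose groups do not overlap can reach that value, so the test adds little to the lack of overlap given above. Of all genes, 9.73% were lower and 8.36% higher without overlap. In the kinesins' range of level these shares were 38.8% and 18.2%. The gap between the groups exceeded the spread of the Polg mutant arrays in 7 genes, and not in Kif11, Kif18b and Kif14. It exceeded the distance between the WT arrays in 9 genes, and not in Kif11. Gaps of this kind were not counted over all genes or over genes at the kinesins' level, so how usual they are is unknown. The arrays also differed within a genotype in a common way. In 9 of the 10 genes Polg mutant replicate 1 was the lowest of the mutant arrays, with Kif2c as the exception, and in 9 WT replicate 1 was above WT replicate 2, with Kif18a as the exception. Neither order is particular to the kinesins. List means of erythroid markers, S phase genes and spindle and chromosome partners showed both, while those of neutrophil markers, tubulins and transport kinesins did not show both. The share of all genes with these orders was not taken. The mean of the 10 genes was 9.65, 9.83 and 9.85 in the Polg mutant arrays and 10.44 and 10.28 in the WT arrays, that is 9.78 ± 0.11 (SD, n = 3) and 10.36 ± 0.12 (SD, n = 2).

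To see how the members varied among themselves, each was set against the mean of the 10 genes on the same array. That mean includes the gene itself, so relative differences of one sign are always offset by others of the opposite sign. Kif22 followed that mean most closely, with relative levels of -0.15, -0.13 and -0.15 in Polg mutant and -0.16 and -0.13 in WT. Kif23 stood 0.15, 0.32 and 0.04 above the mean in Polg mutant, against 0.60 and 0.34 in WT, so its log ratio to that mean was lower in the mutant, with a narrow margin between the highest Polg mutant and the lowest WT array. Kif2c, Kif11 and Kif4 stood the other way without overlap, with relative differences of 0.25, 0.17 and 0.12. Relative levels of the other 6 genes overlapped between the groups. The share of all genes without overlap on this relative scale was not taken. By role, the mean difference was -0.76 over the 3 cytokinesis genes, -0.52 over the 2 chromokinesins, -0.51 over the 3 genes of microtubule ends and -0.48 over the 2 of spindle assembly. Each gene was given a single role, and Kif4, which also works at the central spindle, was counted only as a chromokinesin. The order of the roles depends on that choice. These are descriptions, and differences between members were not tested.

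Among kinesins outside the 10, some with mitotic functions were also lower. All 6 of a list of other mitotic kinesins were measured, with a median difference of -0.42. Of these, 4 were lower without overlap and 3 were at an unadjusted p under 0.05 by limma, while 0 passed after adjustment. The shares of all genes that were lower by these criteria were 9.73%, 5.33% and 0%. In the range of level of the 10 kinesins, 38.8% of genes were lower without overlap and 26.6% at that unadjusted p with limma. Most of these 6 genes were dimmer than that range. Cenpe, the kinetochore motor that carries chromosomes to the spindle equator, read 9.86, 9.85 and 10.07 in Polg mutant, against 10.76 and 10.50 in WT, a difference of -0.70 ± 0.12 (SE, limma adjusted p = 0.260). Kif20b, a cytokinesis relative of Kif20a, differed by -0.52 ± 0.092 (SE, limma adjusted p = 0.265) and Kifc5b, a minus-end motor gene, by -0.70 ± 0.20 (SE, limma adjusted p = 0.425). Kifc5b and Kifc1 (-0.33 ± 0.19 SE, overlapping groups) are near-identical copies that probes may not separate. Kif2a, the depolymerase most akin to Kif2c, differed by -0.17 ± 0.12 (SE, limma adjusted p = 0.638), with 10.35, 10.35 and 10.05 in Polg mutant against 10.43 and 10.40 in WT. Kif2b, its paralog, read 4.37, 4.39 and 4.39 in Polg mutant and 4.39 on both WT arrays, and was added for completeness after its values were seen.

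Transport and other kinesins had no common direction. Of 26 measured, 2 were lower and 2 higher without overlap, against 9.73% and 8.36% of all genes, and the median difference was 0.017. Their mean levels were below a log2 of 6 for 19 of the 26, and signal over background was not known. The 2 that were lower are Kif13b, a vesicle motor, at 6.64, 6.85 and 6.85 in Polg mutant against 7.46 and 7.33 in WT (-0.62 ± 0.095 SE, limma adjusted p = 0.238), and Kif24, a centriolar depolymerase, at 7.21, 7.47 and 7.47 in Polg mutant against 7.93 and 7.93 in WT (-0.55 ± 0.10 SE, limma adjusted p = 0.275). Kif7, of the Hedgehog pathway, differed by 0.16 ± 0.040 (SE, limma adjusted p = 0.367). Kif5b, the widely expressed heavy chain of conventional kinesin, chosen after its values were seen, read 9.10, 9.19 and 8.88 in Polg mutant and 9.13 and 9.10 in WT, and the groups overlapped. The 4 measured genes of kinesin light chains and accessory subunits had a median difference of -0.03, and 0 had an unadjusted p under 0.05 with limma.

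**Figure D3:**
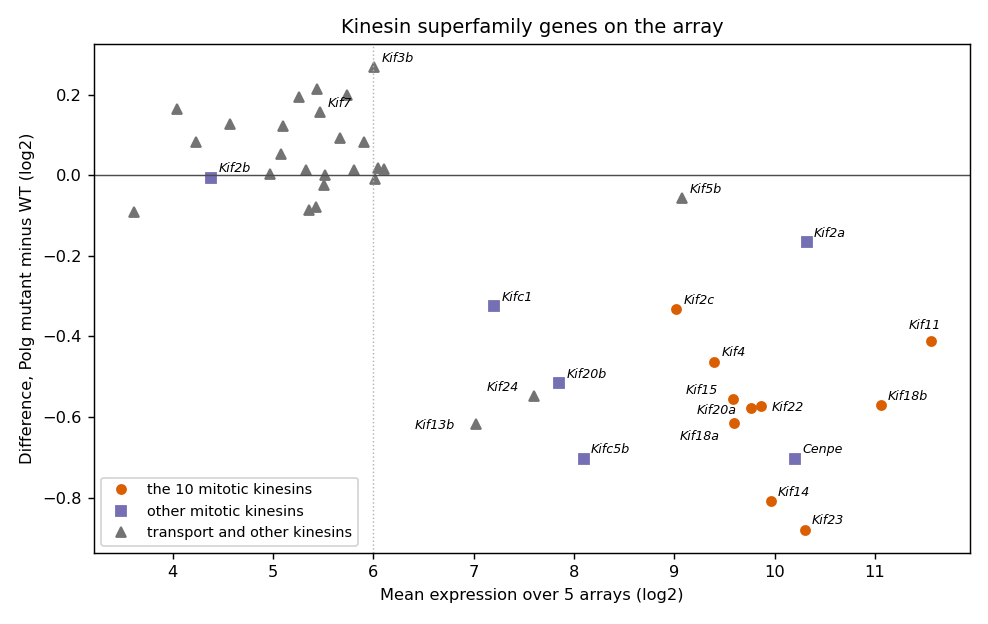
Log2 difference, Polg mutant minus WT (vertical axis), against mean log2 expression over the 5 arrays (horizontal axis) for 42 kinesin genes, with a dotted line at a log2 of 6. The 10 mitotic kinesins (orange) and 5 of the 6 other mitotic kinesins (purple) lie below 0 at levels above 6, and 19 of 26 transport and other kinesins (grey) lie at levels below 6, near 0.

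Genes of proteins that work with these motors were taken from lists set by function, with earlier results of these data known. Of 12 central spindle and cytokinesis partners, 9 were lower without overlap and at an unadjusted p under 0.05 with limma, and 0 were higher, with a median of -0.34. Ect2, the RhoA activator recruited by centralspindlin, differed by -0.57 ± 0.093 (SE, limma adjusted p = 0.249), the scaffold Anln by -0.57 ± 0.080 (SE, limma adjusted p = 0.236) and the kinase Plk1 by -0.40 ± 0.071 (SE, limma adjusted p = 0.265). Of 19 measured spindle and chromosome partners, 18 were lower without overlap and 16 had an unadjusted p under 0.05 with limma, with a median of -0.45. By these criteria, in that order, 9.73% and 5.33% of all genes were lower. Among genes in the kinesins' range of level the shares were 38.8% and 26.6%. Tpx2, which binds Kif11 and Kif15, differed by -0.60 ± 0.074 (SE, limma adjusted p = 0.218) and the condensin subunit Ncaph by -0.45 ± 0.074 (SE, limma adjusted p = 0.249). None of these partners passed after adjustment over all genes.

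Genes of microtubules themselves and of dynein, the minus-end motor, went both ways, and their difference from the kinesins was not tested. Tubulin genes had a median difference of -0.06 over 16 measured, of which 8 were above a log2 of 6 on every array, with 4 lower and 2 higher without overlap. The 4 of smallest p were Tubb4b at -0.17 ± 0.033, Tubg1, which nucleates microtubules, at -0.45 ± 0.097, Tubb5, a major beta-tubulin, at -0.30 ± 0.080 and Tubg2 at 0.35 ± 0.11 (SE, limma adjusted p = 0.283, 0.305, 0.381 and 0.451). Dynein and dynactin genes, 21 measured, had a median of -0.0037, with 5 lower and 4 higher without overlap. In that list the light chain gene Dynlt3 was at 0.56 ± 0.073 (SE, limma adjusted p = 0.225) and Nde1, a dynein regulator needed in mitosis, at -0.56 ± 0.11 (SE, limma adjusted p = 0.283). Dctn1, the large dynactin subunit, and Dync1h1, the dynein heavy chain, were each at -0.34 (limma adjusted p = 0.397 and 0.434), below both WT arrays on every Polg mutant array. Genes of S phase, 32 measured, had a median of -0.27, with 23 lower and 0 higher without overlap and 11 at an unadjusted p under 0.05 with limma. Without overlap, 9.73% of all genes were lower and 8.36% higher, and 5.33% were lower at an unadjusted p under 0.05 with limma. In the kinesins' range of level, 38.8% were lower without overlap and 26.6% at that unadjusted p.

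Regulators of late cell cycle promoters were lower in part. Of 24 measured, 15 were lower and 3 higher without overlap, and 13 lower and 1 higher had an unadjusted p under 0.05 with limma, with 0 after adjustment. Over all genes, 9.73% were lower and 8.36% higher without overlap, and 5.33% lower and 4.18% higher at that unadjusted p. For genes in the kinesins' range of level, 38.8% were lower without overlap and 26.6% at that unadjusted p. Mybl2, the B-MYB subunit that joins the MuvB complex at these promoters, read 9.78, 10.16 and 10.11 in Polg mutant, against 10.49 and 10.54 in WT (-0.50 ± 0.14 SE, limma adjusted p = 0.417). Foxm1, the forkhead factor of the same genes, read 8.72, 8.97 and 8.97 in Polg mutant, against 9.19 and 9.32 in WT (-0.37 ± 0.11 SE, limma adjusted p = 0.423). The NF-Y subunit genes Nfyb and Nfyc differed by -0.65 ± 0.14 and -0.37 ± 0.061 (SE, limma adjusted p = 0.303 and 0.252). Nfya, the other NF-Y subunit gene, was named after its values were seen. Its difference was -0.071 ± 0.041 (SE, limma adjusted p = 0.638), and the groups overlapped. The 1 that was higher at an unadjusted p under 0.05 with limma was Cdkn1a, the gene of the cyclin-dependent kinase inhibitor p21. Cdkn1a read 10.50, 9.69 and 9.72 in Polg mutant, against 7.33 and 6.64 in WT (2.99 ± 0.38 SE, limma adjusted p = 0.224).

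**Figure D4:**
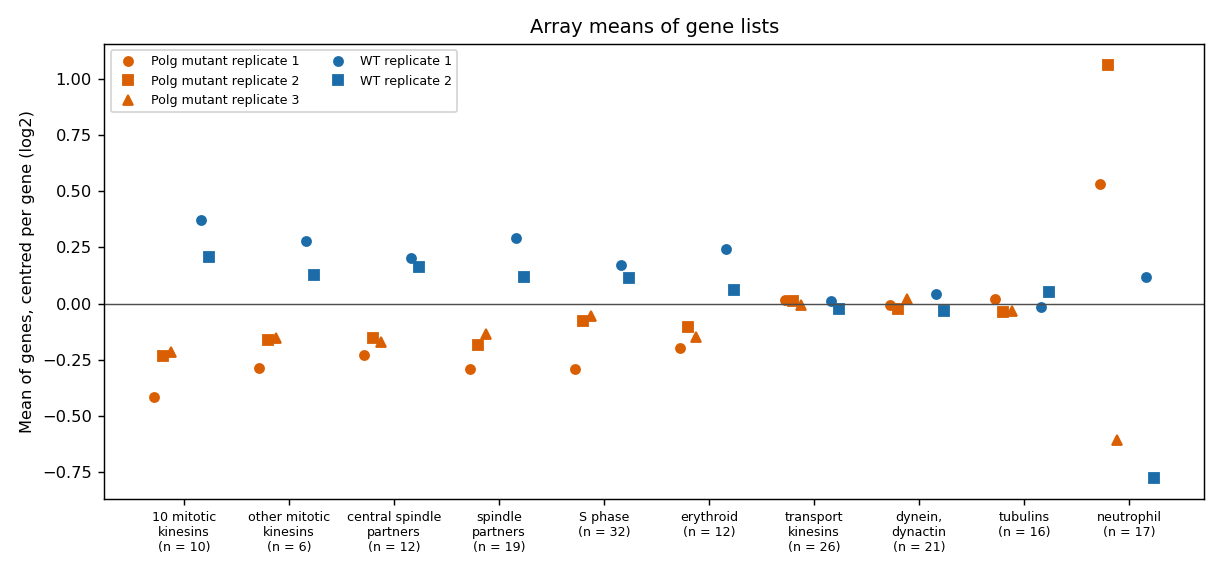
Mean over the genes of each list, after centring each gene midway between its group means (log2, vertical axis), for every array, Polg mutant (orange) left of WT (blue), with the number of measured genes under each list. The 10 kinesins lie at -0.42, -0.23 and -0.22 in Polg mutant and at 0.37 and 0.21 in WT, the erythroid list is also split by genotype, and the neutrophil list is not.

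Likeness to the kinesins was measured as the root mean square difference, over the 5 arrays, between a gene's centred log2 values and the mean centred values of the 10. Over 19208 other genes with settled symbols, the nearest were Ift80, an intraflagellar transport gene (0.0237), the motor gene Kif13b (0.0238), Jak2, the kinase of the erythropoietin receptor (0.0297), the kinase gene Dyrk1a (0.0310) and Ctcf, which shapes chromatin loops (0.0315). Ift80 read 8.24, 8.39 and 8.40 in Polg mutant, against 9.02 and 8.89 in WT. Of the 10 members, which entered the mean themselves, Kif22 was closest at 0.0134 and Kif23 farthest at 0.194, with 1123 non-members nearer than Kif23. All these values share the same 5 arrays.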

How the data were processed

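For each of 5 arrays the authors' deposited table holds a log2 value for 41345 probe sets. The submitters' processing notes name RMA and Partek 6.5 without saying what each did, and no genome build is stated. That values are log2 was judged from their range, and they were used unaltered. Of 23521 probe sets with 1 gene symbol in the platform's annotation, the brightest per gene was kept, which left 22180 genes, and 67.9% of them had equal values on at least 2 arrays. All 10 kinesins had 5 distinct values.

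The 3 Polg mutant arrays were set against the 2 WT arrays in limma 3.58.1 under R 4.3.3 (genotype as single term, empirical Bayes moderation, two-sided, Benjamini-Hochberg adjustment over all genes, threshold 0.05). The fit was tested on simulated data without tied values, with planted differences larger than those of the kinesins. That test does not show how the fit performs at differences of the kinesins' size. Errors are limma's SE or the SD over arrays, and the number of arrays limits precision. The kinesins and all gene lists were chosen with earlier results of these data known. The text names all members, at most 4 genes per other list by smallest p, a few fixed by name, and the 5 genes nearest in profile. Alternatives covered scaling, moderation, filters, probe sets, replicate number as a block and leaving out each array. Promoter sequences are RefSeq's (GRCm38.p6).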

Additional observations from a re-analysis of the deposited data

How the results depend on the processing

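The median difference of the 10 kinesins lay between -0.62 and -0.49 in every alternative run, all 10 genes stayed lower in each, and no kinesin passed the adjusted threshold in any of them. Counts of all genes past the threshold moved from 0 higher and 0 lower to 10 and 2 after renewed quantile normalization, 30 and 18 after centring on the genes brighter than the median gene, 4 and 1 without moderation, 6 and 5 among 8340 genes that exceeded a log2 of 6 on 2 or more arrays, and 73 and 41 among the 7112 genes with 5 distinct values. The causes were not tested. Leaving out 1 array gave 0 to 713 higher and 0 to 1068 lower genes, with 713 and 1068 without WT replicate 1 and 511 and 413 without WT replicate 2. In those fits the spread of the single WT array is borrowed from the mutant arrays. The number of kinesins at an unadjusted p under 0.05 with limma was 9, 7 and 8 without Polg mutant replicates 1, 2 and 3. At that level 906, 934 and 955 of all 22180 genes were lower in those fits, and 717, 748 and 830 higher. The median kinesin difference was -0.52 without WT replicate 1 and -0.61 without WT replicate 2. With the replicate number as a block, 6 kinesins had an unadjusted p under 0.05 with limma, where 1057 of all genes were lower and 1089 higher. The median kinesin difference was then -0.62, with 0 genes past the threshold in either direction. Deviations of same-numbered arrays correlated at 0.19 for replicate 1 and -0.20 for replicate 2 across genes, but with 2 WT arrays the WT deviations are mirror images, so these values are not independent. The labels do not say that a number marks a pair. The median of the other kinesins, 0.0073 over 32 genes, was -0.038 after centring on the brighter genes, -0.25 over the 12 above a log2 of 6 and -0.33 over the 9 with 5 distinct values, which are subsets. How far each probe set lay above background was unknown, which limits what can be said of dim genes.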
